A study of Homo sapiens with 20 samples.

Results

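The expression of 10 transcription factor genes that mark T cell leukemia and the T cell lineage was examined in Jurkat T lymphoblasts and in their CD47- derivative. The members are TAL1, LMO1, LMO2, GATA3, RUNX1, MYB, TCF7, LEF1, BCL11B and TCF12. They were taken by gene symbol and make up 10 of the 60719 genes in the gene table and 157 of the 232184 isoforms in the isoform table. TAL1 is a basic helix-loop-helix protein that is silent in normal T cells and active in many T cell acute leukemias, where it pairs with an E protein such as the TCF12 product HEB. The pair is joined through LIM-only proteins (LMO1 or LMO2) to GATA3 and acts with RUNX1 and MYB at shared enhancers. TCF7 (TCF-1), LEF1 and BCL11B are factors of normal thymocytes that establish and keep T cell identity, and TCF-1 and LEF1 are the HMG box factors through which β-catenin acts.

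WT denotes Jurkat, an established human T cell leukemia line. CD47- denotes JinB8, a mutant line derived from Jurkat that lacks surface CD47, the receptor for thrombospondin-1 (TSP1). JinB8 is 1 lineage, so loss of CD47 and other differences between the lines cannot be told apart. Each line gave 10 libraries, and each condition was sequenced once per line. Untreated cells (UT) were collected at 1 h only. Cells plated on immobilized anti-CD3 and anti-CD28 (CD3+CD28), cells on both antibodies with TSP1 (CD3+CD28+TSP1) and cells given TSP1 alone were collected at 1, 3 and 6 h. TSP1 was used at 1 μg/mL and anti-CD28 at 4 μg/mL, and the unit of the anti-CD3 dose differs between the sample labels and the study's methods. Cells of all groups were held in HITES medium, and there was no untreated library at 3 or 6 h.

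Counts assigned to genes ranged from 16107921 to 31737616 per library. Levels are given as CPM, read counts scaled to a common library size after adjustment by TMM factors, and 16327 genes passed the low-count filter. The targeted gene, CD47, was at 253 to 372 CPM in WT libraries and at 124 to 165 CPM in CD47- libraries, so its mRNA was lower but present in the mutant line. All 14 T cell markers examined reached a mean of 1 CPM in both lines, with a summed level of 2256 to 3189 CPM in WT and 2154 to 3047 CPM in CD47- cells. Of these markers 6 were called higher and 3 lower in CD47- cells, against 40.4% of all genes called. TRAC, a chain of the antigen receptor that anti-CD3 engages, averaged 185 CPM in WT and 21.8 CPM in CD47- libraries, and CD28, the target of the other antibody, 45.1 and 230.0 CPM. Their part in the results was not tested. Summed B cell markers were at 38.2 to 59.0 CPM in WT and 6.43 to 14.4 CPM in CD47- cells. Summed mesenchymal markers were at 1.89 to 8.03 CPM (WT) and 7.70 to 13.0 CPM (CD47-), and natural killer markers at 1.25 to 9.18 and 6.21 to 12.9 CPM. Erythroid and megakaryocyte markers were at 4.01 to 10.9 CPM (WT) and 6.46 to 16.2 CPM (CD47-). Myeloid markers were at 1.31 to 7.32 and 1.21 to 5.98 CPM, and carcinoma markers at 1.64 to 2.81 and 1.92 to 3.82 CPM, in the same order. The part of these markers in the results was likewise not tested. The CD47- library of CD3+CD28+TSP1 at 3 h stood apart, with the lowest total count and the lowest median correlation with the other libraries of its line (0.970). Where it moves a result of a member, the value without it is given or the library is named. Log2 fold changes are CD47- over WT, or later over earlier. They come from edgeR's quasi-likelihood test, and p-values were adjusted over all genes tested by Benjamini-Hochberg. Because nothing states that libraries came from separate cultures, p-values measure only the spread between these libraries.

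The promoter windows of 4 isoforms are printed because they hold the main starts of TAL1 and GATA3, which were called between the lines, and the upstream and internal starts of TCF12, which was called over time. Each window spans 250 bases before and 50 bases after a RefSeq start on GRCh38.p14 and is written 5′ to 3′ on the gene's strand. Capitals mark matches to 3 motifs. CANNTG is the E-box, the core bound by RUNX factors is TGTGGT, and a GATA motif is written AGATAA. They were searched on both strands and did not overlap each other. The TAL1 window, chr1:47231666-47231965 on the minus strand, holds 3 TGTGGT matches. The GATA3 window, chr10:8054438-8054737 on the plus strand, holds 1 E-box. For TCF12, the upstream window at chr15:56918394-56918693 holds no match and the internal window at chr15:57219180-57219479 holds 1 E-box, both on the plus strand. The internal TCF12 window is built on a RefSeq start 36 bases from the GENCODE start of TCF12-203. Windows of other RefSeq starts near these are not printed. For TAL1, chr1:47232286-47232585 holds 1 E-box and 1 AGATAA. For TCF12, chr15:56917840-56918139 holds 1 E-box, and chr15:56918837-56919136 and chr15:56919195-56919494 hold no match.
TAL1-202 promoter: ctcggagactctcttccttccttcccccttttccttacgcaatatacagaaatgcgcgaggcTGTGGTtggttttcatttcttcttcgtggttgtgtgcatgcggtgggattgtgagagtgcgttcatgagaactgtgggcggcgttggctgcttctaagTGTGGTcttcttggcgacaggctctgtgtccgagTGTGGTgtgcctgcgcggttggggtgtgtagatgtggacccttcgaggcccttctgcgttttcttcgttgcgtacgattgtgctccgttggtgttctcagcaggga
GATA3-202 promoter: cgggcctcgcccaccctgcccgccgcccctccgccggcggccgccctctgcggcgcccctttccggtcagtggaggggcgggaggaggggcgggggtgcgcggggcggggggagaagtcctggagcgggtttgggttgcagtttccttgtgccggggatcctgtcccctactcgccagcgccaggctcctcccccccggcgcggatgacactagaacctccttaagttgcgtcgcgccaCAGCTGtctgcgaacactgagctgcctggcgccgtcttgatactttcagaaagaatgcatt
TCF12-202 promoter: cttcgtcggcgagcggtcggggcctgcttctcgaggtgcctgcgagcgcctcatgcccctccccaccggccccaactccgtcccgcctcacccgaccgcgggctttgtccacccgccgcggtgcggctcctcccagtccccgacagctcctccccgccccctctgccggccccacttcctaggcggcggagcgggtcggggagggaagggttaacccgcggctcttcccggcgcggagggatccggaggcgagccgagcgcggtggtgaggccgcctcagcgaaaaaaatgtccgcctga
TCF12-203 promoter: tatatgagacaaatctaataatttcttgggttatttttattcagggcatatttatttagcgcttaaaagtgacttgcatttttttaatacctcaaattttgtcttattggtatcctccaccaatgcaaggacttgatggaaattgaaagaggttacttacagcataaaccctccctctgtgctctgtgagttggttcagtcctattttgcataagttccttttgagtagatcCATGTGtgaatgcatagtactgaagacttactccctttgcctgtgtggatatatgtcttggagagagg
Of 35116 RefSeq windows of 300 bases, 68.7% held CANNTG, 13.1% held TGTGGT and 10.3% held AGATAA, so an E-box in such a window is common. RefSeq windows were found for 9 of 10 members, 20 windows in all, and LMO2 had none. A match is a sequence description and not a measured binding site.

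LEF1 and MYB mRNAs were the most abundant members, and LMO2 mRNA was nearly undetected. Per transcript length, mean levels in WT cells were 243 TPM for LEF1, 167 for MYB, 66.9 for TCF7, 58.9 for TCF12, 31.5 for RUNX1, 29.5 for TAL1, 10.3 for BCL11B, 2.24 for GATA3, 1.93 for LMO1 and 0.0847 for LMO2. In CD47- cells the order was the same except that TAL1, at 48.6 TPM, exceeded RUNX1, at 35.4 TPM. Ranges over the 10 libraries overlapped in both lines for TCF7, TCF12, RUNX1 and TAL1 with their neighbours among these 4. They also overlapped for LEF1 and MYB and for GATA3 and LMO1 in WT cells only, and for BCL11B and GATA3 in CD47- cells only. MYB lay above TCF7 in all libraries of both lines, and BCL11B lay below RUNX1 and TAL1. LMO2, on chr11:33858576-33892076, had 0 to 7 counts per library in WT and 0 to 8 in CD47- cells. It failed the filter, and its level lay near the limit of detection of 3 counts, which is 0.0979 to 0.156 CPM. LMO1 was thus the more abundant of these LIM-only genes. LMO4, a related LIM-only gene in the list of TAL1 complex partners, averaged 18.4 CPM in WT and 25.4 CPM in CD47- libraries.

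**Figure D1:**
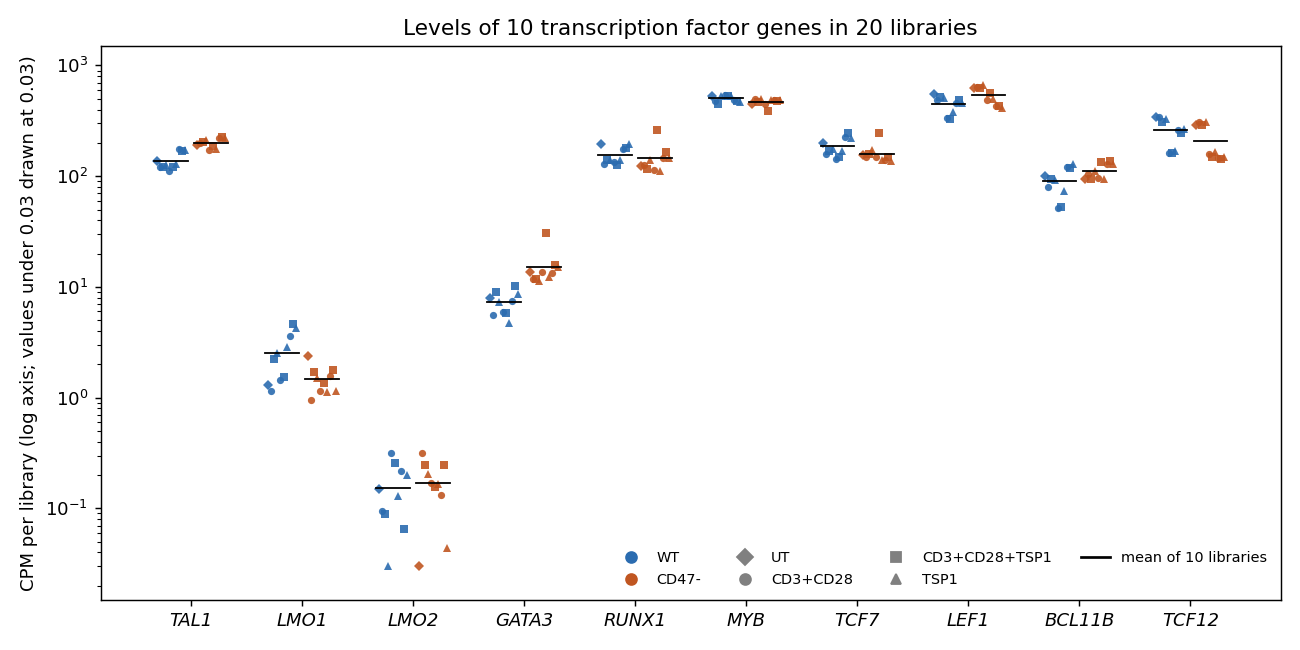
CPM of each member in each of the 20 libraries on a log axis, with WT in blue, CD47- in orange, marker shapes for treatments and black bars for the mean of 10 libraries. MYB and LEF1 lie at the top, LMO1 near 1 to 5 CPM, and LMO2 below 0.4 CPM in every library.

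TAL1 and GATA3 mRNAs were higher and LMO1 mRNA was lower in CD47- than in WT cells. These were the 3 of 9 tested members that were called, against 40.4% of all genes called between the lines. TAL1, on the minus strand of chr1:47216290-47232225, ranged from 111 to 174 CPM in WT (median 128) and from 171 to 225 CPM in CD47- cells (median 201). The lowest CD47- library, CD3+CD28 at 3 h, overlapped the highest WT library, CD3+CD28 at 6 h, but within each of the 10 pairs of libraries of the same treatment and time TAL1 was higher in CD47- cells. On the log2 scale TAL1 differed by 0.54 with an SE of 0.09 (edgeR adjusted p = 3.99e-05), a 1.45-fold difference.

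GATA3, on the plus strand of chr10:8045378-8075198, directs T cell commitment and the helper T cell fate. It ranged from 4.76 to 10.1 CPM in WT (median 7.37) and from 11.3 to 30.9 CPM in CD47- cells (median 13.6). The ranges did not overlap, and the highest value came from the library that stood apart. On the log2 scale GATA3 differed by 1.05 with an SE of 0.18 (edgeR adjusted p = 4.57e-05) with that library and 0.89 without it. The antisense gene GATA3-AS1 averaged 0.316 ± 0.137 CPM in WT against 0.413 ± 0.166 CPM in CD47- cells (SD, n = 10). The strand setting of the counting is not given in the sources used here, so reads of the sense and antisense genes may not be fully separated.

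LMO1, on the minus strand of chr11:8224309-8268716, ranged from 1.15 to 4.60 CPM in WT (median 2.38) and from 0.955 to 2.36 CPM in CD47- cells (median 1.43). These levels rest on 24 to 141 counts per library, and the ranges overlapped. It was lower in CD47- cells in 9 of 10 pairs and higher in the untreated pair, which had 1.304 CPM in the WT and 2.36 CPM in the CD47- library. The mean difference within pairs in log2 was -0.10 at 1 h (-0.59 to 0.66), -0.48 at 3 h and -1.22 at 6 h. LMO1 was thus lower mostly at the later times. Its log2 fold change was -0.80 with an SE of 0.25 (edgeR adjusted p = 0.0140). The call was lost, at similar fold changes, in the 6 activated pairs alone (-0.76) and in the 4 unactivated pairs alone (-0.81).

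The other 6 tested members did not pass the test between the lines. Log2 fold changes were 0.30 (SE 0.15) for BCL11B, 0.25 (SE 0.11) for LEF1, -0.10 (SE 0.06) for MYB, -0.10 (SE 0.14) for RUNX1, -0.22 (SE 0.11) for TCF7 and -0.30 (SE 0.20) for TCF12, with edgeR adjusted p from 0.0837 to 0.591. The intervals of 1.96 SE ran from 0.01 to 0.60 for BCL11B, from 0.03 to 0.47 for LEF1 and from -0.68 to 0.08 for TCF12, before any adjustment over genes. MYB, the factor that joins TAL1 at leukemic enhancers, had the narrowest interval, from -0.22 to 0.01. RUNX1 was lower in CD47- cells in 9 of 10 pairs and higher in the pair with the library that stood apart, which held 263 CPM against 127 CPM. With pairs of matched treatment and time as a block, BCL11B, LEF1 and TCF12 were also called, giving 6 members against 54.9% of all genes. In the single model of line, treatment and time, averaged over conditions, all tested members except RUNX1 were called, 8 of 9 against 60.3% of all genes. Without the library that stood apart, TCF7 was also called at -0.29, while RUNX1 was at -0.22 (SE 0.10, edgeR adjusted p = 0.0816) and MYB at -0.06, neither of them called.

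**Figure D2:**
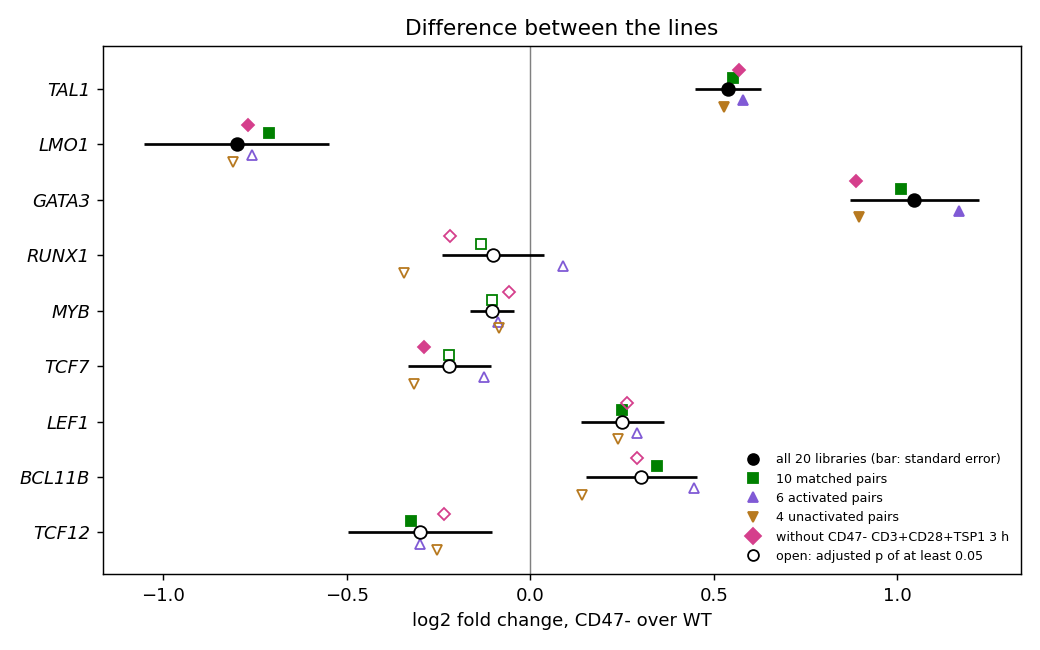
Log2 fold change of each tested member, CD47- over WT, with black circles and standard error bars for all 20 libraries and smaller symbols for matched pairs, activated pairs, unactivated pairs and the data without the library that stood apart. Filled symbols have an adjusted p below 0.05. GATA3 and TAL1 lie to the right of 0 under each of these settings, and LMO1 lies to the left.

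Several members changed with time in both lines. Time contrasts compare 3 libraries at 3 or 6 h with 4 libraries at 1 h in each line, with treatment in the model. TCF12, on the plus strand of chr15:56918623-57299281, fell in both lines. In WT cells it was at 341, 339, 311 and 325 CPM at 1 h in the order UT, CD3+CD28, CD3+CD28+TSP1 and TSP1. It fell to 163, 161 and 169 CPM at 3 h in the order of the last 3 treatments and stood at 264, 248 and 266 CPM at 6 h. In WT cells the 3 time points thus did not overlap, and the 6 h level lay between the others.

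In CD47- cells TCF12 was at 290.2, 307, 288 and 305 CPM at 1 h. It fell to 159, 148 and 164 CPM at 3 h and was at 146, 142 and 149 CPM at 6 h. The partial return seen in WT cells at 6 h was not present. Log2 changes from 1 h were -0.98 at 3 h and -0.33 at 6 h in WT, and -0.93 and -1.04 in CD47- cells, each with SE 0.06 and called by edgeR, the largest adjusted p being 2.19e-04. The difference between the lines at 6 h was -0.72 (SE 0.08, edgeR adjusted p = 6.34e-05) and at 3 h 0.05 (SE 0.08), which was not called. TCF12 was the only member whose line difference at 6 h was called under each alternative run.

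LEF1, on the minus strand of chr4:108047545-108168956, also fell from 1 h to 3 h in both lines, and the lines differed at 6 h. In WT cells it was at 551, 491, 523 and 509 CPM at 1 h, 332, 329.7 and 376 CPM at 3 h, and 460.3, 483 and 455 CPM at 6 h. CD47- cells had 632, 634, 620.1 and 662 CPM at 1 h, 491, 559.9 and 495 CPM at 3 h, and 431, 429.7 and 412 CPM at 6 h. LEF1 was thus above WT in all CD47- libraries at 1 h and 3 h and below WT in all 3 pairs at 6 h. The log2 change was -0.55 (SE 0.07) at 3 h in WT, -0.31 (SE 0.07) at 3 h in CD47- and -0.59 (SE 0.07) at 6 h in CD47- cells, all called by edgeR. At 6 h in WT cells it was -0.12 (SE 0.07), which was not called. At 6 h the line difference was -0.47 (SE 0.11, edgeR adjusted p = 0.00854), and it reached 0.055 without the CD47- TSP1 library at 6 h. With limma voom and quantile normalization, which change tool and scaling together, the change at 3 h in CD47- cells was -0.04 and was not called.

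BCL11B, on the minus strand of chr14:99169287-99272197, keeps T cells from taking other fates. In WT cells it was at 100.4, 79.4, 93.4 and 92.7 CPM at 1 h, 51.1, 52.5 and 72.9 CPM at 3 h, and 121, 118 and 129.7 CPM at 6 h. CD47- cells had 94.2, 104, 94.4 and 112 CPM at 1 h, 96.2, 133 and 94.8 CPM at 3 h, and 129, 137 and 129 CPM at 6 h. It fell at 3 h in WT cells by 0.60 in log2 (SE 0.12, edgeR adjusted p = 0.00168) and rose at 6 h by 0.47 (SE 0.12). In CD47- cells the 6 h rise was 0.35 (SE 0.12, edgeR adjusted p = 0.0244), and this call was lost without the CD47- library of CD3+CD28+TSP1 at 1 h (0.20), CD3+CD28 at 6 h or TSP1 at 6 h. The line difference at 3 h was 0.65 (SE 0.17, edgeR adjusted p = 0.0472) and was not called in 13 of 20 fits with a library left out, with upper-quartile factors or with condition blocks shared by both lines. Over the fits with a library left out it ran from 0.48 to 0.78. The CD47- value of 133 CPM at 3 h came from the library that stood apart. Within pairs at 3 h the lines differed by 0.38 to 1.33 in log2, most in the pair with that library.

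TAL1 and TCF7 rose at 6 h in WT cells. TAL1 in WT was at 136, 119.9, 121 and 126 CPM at 1 h, 111, 122 and 129 CPM at 3 h, and 174, 169 and 171 CPM at 6 h. CD47- libraries held 192, 199, 203 and 211 CPM at 1 h, 171, 186 and 177 CPM at 3 h, and 222, 225 and 219 CPM at 6 h. The log2 change at 6 h was 0.49 in WT (SE 0.06, edgeR adjusted p = 1.51e-05), and the line difference was -0.37 (SE 0.09, edgeR adjusted p = 0.0106). That difference was not called without a low-count filter or in 4 of 20 fits with a library left out, which omitted WT CD3+CD28+TSP1 or TSP1 at 1 h, WT CD3+CD28 at 6 h, or CD47- TSP1 at 6 h. TAL1 was higher in CD47- cells at every time, and the mean difference within pairs in log2 fell from 0.68 at 1 h to 0.56 and 0.37 at 3 and 6 h. Its fall at 3 h in CD47- cells (-0.20, SE 0.06, edgeR adjusted p = 0.0200) was not called under 4 of 6 alternatives of scaling, tool, filter or line.

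TCF7, on the plus strand of chr5:134114681-134151865, encodes TCF-1. In WT cells it was at 200.1, 159.7, 169 and 175 CPM at 1 h, 143, 149 and 169 CPM at 3 h, and 227, 245 and 222 CPM at 6 h. In CD47- cells it was at 156, 149, 157 and 172 CPM at 1 h, 147, 244 and 139.8 CPM at 3 h, and 141, 149 and 138 CPM at 6 h. The WT libraries at 6 h lay above all other WT libraries, whereas CD47- libraries at 6 h lay within or below the range at 1 h, and the 3 h value of 244 CPM came from the library that stood apart. The log2 change at 6 h in WT was 0.46 (SE 0.13, edgeR adjusted p = 0.00901) and reached adjusted p of 0.054 and 0.052 without the WT library of CD3+CD28 or CD3+CD28+TSP1 at 6 h. The line difference at 6 h was -0.62 (SE 0.19, edgeR adjusted p = 0.0349), and it was not called in 10 of 20 fits with a library left out, with upper-quartile factors, with limma voom or with condition blocks shared by both lines.

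LMO1 in WT cells was at 1.304, 1.15, 2.23 and 2.52 CPM at 1 h, 1.45, 1.54 and 2.85 CPM at 3 h, and 3.60, 4.60 and 4.28 CPM at 6 h. It rose at 6 h by 1.13 in log2 (SE 0.25, edgeR adjusted p = 0.00166), and its 3 values at 6 h lay above all other WT libraries. In CD47- cells it was at 0.955 to 2.36 CPM at 1 h, 1.12 to 1.35 CPM at 3 h and 1.14 to 1.79 CPM at 6 h, with a log2 change at 6 h of 0.12 (SE 0.27). At 6 h a line difference of -1.01 (SE 0.37) did not pass the test (edgeR adjusted p = 0.0786).

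GATA3, RUNX1 and MYB had no called time contrast other than GATA3 at 3 h in CD47- cells. In WT cells GATA3 was at 7.93, 5.54, 9.06 and 7.27 CPM at 1 h, 5.89, 5.76 and 4.76 CPM at 3 h, and 7.47, 10.1 and 8.67 CPM at 6 h, so the 3 h and 6 h values did not overlap. GATA3 at 3 h in CD47- cells was at 13.6, 30.9 and 12.4 CPM, and its called change of 0.61 (SE 0.22, edgeR adjusted p = 0.0402) became 0.20 and was not called without that library. RUNX1, on the minus strand of chr21:34787801-36004667, was at 175 to 196 CPM at 6 h and 128 to 194 CPM at 1 h in WT cells, a log2 change of 0.43 (SE 0.20, edgeR adjusted p = 0.0849). Its WT values at 3 h, 127 to 139.9 CPM, lay below all of those at 6 h. MYB, on the plus strand of chr6:135181308-135219173, stayed between 384 and 543 CPM over all 20 libraries, and neither time contrast was called in either line.

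The counts of called members over time were read against those of all genes. At 6 h in WT, 5 of 9 members were called (4 higher, 1 lower) against 50.5% of all genes. At 3 h in WT, 3 were called (all lower) against 34.3%. In CD47- cells, 3 members were called at 6 h (1 higher, 2 lower) against 53% of all genes, and 4 at 3 h (1 higher, 3 lower) against 38%. For the difference between the lines, 4 members were called at 6 h, all lower in CD47- relative to WT, against 16.6% of all genes, and 1 was called at 3 h against 4.28%. The contrasts within a line share their 1 h libraries.

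**Figure D3:**
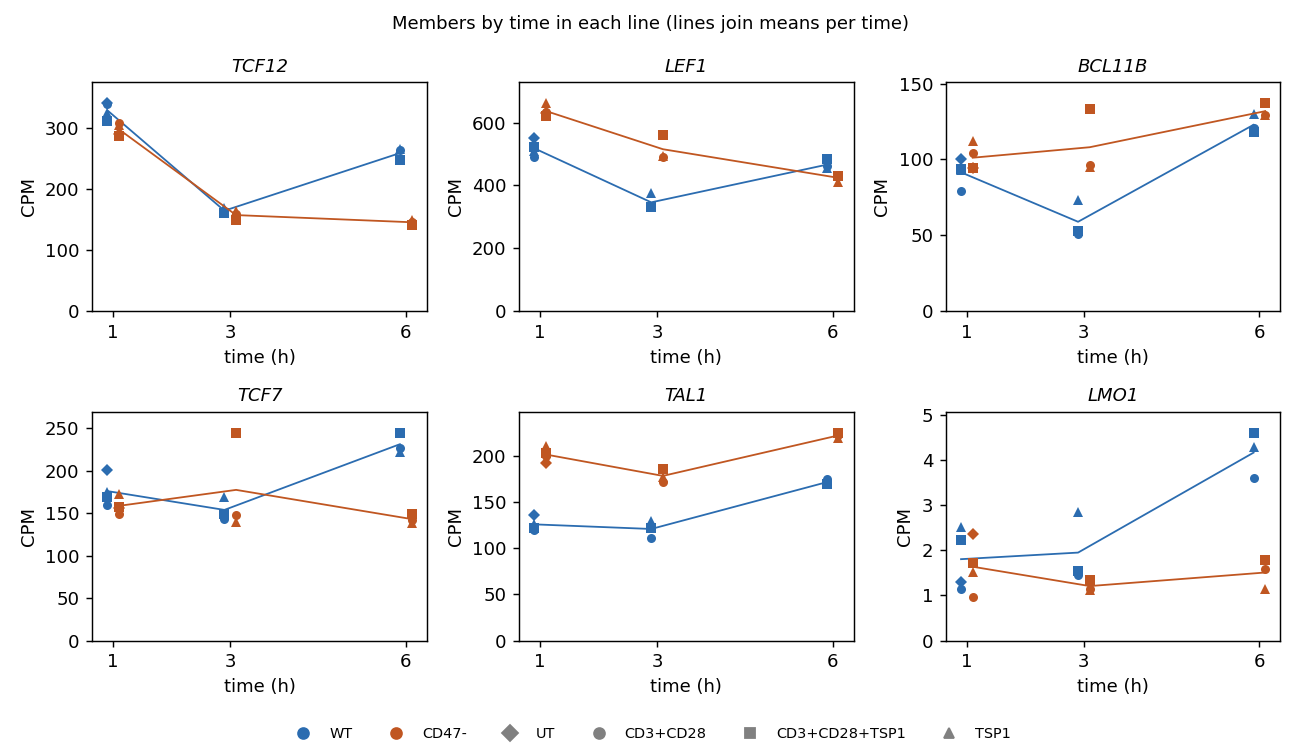
CPM of 6 members against time in hours, with WT in blue, CD47- in orange, marker shapes for treatments and lines through the mean per time. TCF12 falls in both lines by 3 h and lies higher again at 6 h in WT alone, and LEF1 crosses between the lines at 6 h.

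With all libraries and the low-count filter, no member was called as changed by activation or by TSP1. The model holds 1 term per line and treatment that is shared by all times, so an effect at a single time was not tested. In edgeR, 0 of 9 members were called for CD3+CD28+TSP1 against TSP1, for CD3+CD28 against UT, or for CD3+CD28+TSP1 against CD3+CD28 in either line, or for the line difference in the first and the last of these, and DESeq2 and limma voom also called 0 in each. The background was 0.0919% of all genes for CD3+CD28+TSP1 against TSP1 in WT cells and 0 in the others, so few genes of any kind passed. At unadjusted p below 0.05 there were 0 members in each WT contrast and in both line differences. In CD47- cells there was 1 for CD3+CD28+TSP1 against TSP1 (GATA3, 0.51, SE 0.21), 1 for CD3+CD28 against UT (LMO1, -0.92, SE 0.39) and 3 for CD3+CD28+TSP1 against CD3+CD28 (GATA3 0.51, RUNX1 0.47 and TCF7 0.31). Those for GATA3, RUNX1 and TCF7 include the library that stood apart, where the same genes were at their CD47- maximum. Without it GATA3 was at 0.10 against TSP1, and against CD3+CD28 GATA3 was at 0.08, RUNX1 at 0.03 and TCF7 at 0.06. The contrast with UT rests on 1 untreated library per line. The share of all genes called in the alternative fits is not given here, so calls in them are not read as particular to the members. Some alternatives did call members. Without the low-count filter these were in CD3+CD28 against UT in WT, both contrasts of CD3+CD28+TSP1 in CD47- cells and 1 line difference. For CD3+CD28 against UT in WT, 1 was called with WT libraries alone and 0 to 1 with a library left out. For TAL1 in WT cells, CD3+CD28+TSP1 against TSP1 gave -0.05 (1.96 SE interval -0.17 to 0.07), whereas the interval for GATA3 was wider, from -0.18 to 0.72.

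The partners of TAL1 differed between the lines in several members. Of 21 genes listed as TAL1 complex partners, 17 were tested, and 6 were higher, 4 lower and 7 not called in CD47- cells, with a median log2 difference of 0.00 against -0.01 over all genes. The counts of this and the following lists stand against 40.4% of all genes called, or 54.9% with matched pairs as a block. With that block 6 partners were higher, 6 lower and 5 not called. LYL1, the closest relative of TAL1, averaged 0.326 ± 0.209 CPM in WT against 5.79 ± 1.17 CPM in CD47- cells (SD, n = 10), a log2 difference of 4.13 (SE 0.27, edgeR adjusted p = 2.74e-11). GATA2, a GATA factor of blood stem cells, averaged 0.916 ± 0.824 CPM in WT against 20.7 ± 7.50 CPM in CD47- cells, a log2 difference of 4.51 (SE 0.45, edgeR adjusted p = 2.78e-08). Both were higher in all 10 pairs, and LYL1 rests on 2 to 17 counts per WT library. GATA2 in CD47- cells was at 17.9 to 28.9 CPM at 1 and 3 h and at 9.64 to 12.3 CPM at 6 h, so it was lower at 6 h in each treatment. In WT cells it was at 0.692 to 2.63 CPM at 1 and 3 h. At 6 h the WT libraries held 0.0653 to 0.0879 CPM, below the limit of detection. SSBP2, a stabilizer of the LDB1 bridge, was lower in CD47- cells (-2.06, SE 0.17). SSBP3 (0.46, SE 0.08) and SSBP4 (0.81, SE 0.29), of the same family, were called higher. ID1 was lower (-1.12, SE 0.31), whereas ID2 was higher (1.04, SE 0.19). ID proteins bind E proteins and keep them from DNA. LDB1 itself, the scaffold of the complex, was at 49.0 ± 2.95 and 47.4 ± 3.66 CPM and was not called.

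Known targets of TAL1 moved in both directions. Of 15 listed genes 13 were tested, and 5 were higher, 5 lower and 3 not called, with a median of -0.27. In matched pairs these counts were 5, 7 and 1. RAG1 and RAG2, the recombinase of antigen receptor genes, were lower in CD47- cells by 5.43 and 4.20 on the log2 scale, and PTCRA, the pre-T cell receptor chain, had a log2 difference of -3.07 (SE 0.18). CD69 ranged from 20.3 to 455 CPM in WT and 5.41 to 67.7 CPM in CD47- cells and was lower in all 10 pairs (-2.33, SE 0.58). STAT5A was higher (2.44, SE 0.13), with means of 19.7 ± 3.36 CPM in WT against 107 ± 24.0 CPM in CD47- cells. STIL is the neighbour of TAL1 on chromosome 1, 17913 bases from it, and was at 121 to 285 CPM in WT and 83.3 to 194 CPM in CD47- cells. It was lower in all 10 pairs and was not called with all libraries (-0.42, SE 0.19, edgeR adjusted p = 0.0831), but it was called with matched pairs as a block (edgeR adjusted p = 9.77e-06). TAL1 was higher in all 10 pairs.

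Among 28 other T lineage factors, 27 were tested, and 10 were higher, 7 lower and 10 not called, with a median of 0.02. In matched pairs 12 were higher, 12 lower and 3 not called. ZBTB7B (ThPOK), which sets the CD4 fate, averaged 0.192 ± 0.0893 CPM in WT against 4.30 ± 1.36 CPM in CD47- cells (log2 difference 4.45, SE 0.26). ZBTB16 (PLZF), the factor of innate-like T cells, averaged 2.16 ± 0.631 CPM in WT against 0.165 ± 0.113 CPM in CD47- cells (-3.71, SE 0.30). IKZF3 (-3.65, SE 0.28) and TOX2 (-2.26, SE 0.35) were also lower. The lower line held few counts per library: 2 to 9 for ZBTB7B in WT, 1 to 9 for ZBTB16 and 0 to 14 for TOX2 in CD47- cells. These levels lie near the limit of detection, so the sizes of these differences are uncertain. GATA2 is a member of both this list and the partners of TAL1.

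Partners of TCF-1 and LEF1 included genes that differed in each direction. Of 20 listed genes 18 were tested, and 4 were higher, 2 lower and 12 not called, with a median of 0.05. JUP, plakoglobin, the relative of β-catenin, was higher (2.32, SE 0.30), with means of 1.58 ± 0.811 CPM in WT against 7.85 ± 3.24 CPM in CD47- cells. CTNNB1, the gene of β-catenin, was called lower (-0.28, SE 0.07), with means of 280 CPM in WT against 230 CPM in CD47- cells. Of the corepressors of the Groucho family in the list, TLE1 (0.72, SE 0.10) and TLE2 (0.67, SE 0.16) were higher and TLE4 (-0.70, SE 0.16) was lower. TLE3 (0.20, SE 0.11) and TLE5 (0.01, SE 0.07), the most abundant of them with means of 155 CPM (WT) and 157 CPM (CD47-), were not called. BCL9L, a β-catenin coactivator, had a log2 difference of 0.91 (SE 0.30), and its CD47- range of 4.69 to 33.1 CPM overlapped the WT range of 3.44 to 6.71 CPM. The 33.1 CPM came from the library that stood apart, and without it the difference was 0.46 (SE 0.15, edgeR adjusted p = 0.0224).

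Of 23 other T-ALL factors 14 were tested, and 3 were higher, 7 lower and 4 not called, with a median of -0.32. Without the library that stood apart 5 were lower, and in matched pairs 8 were. HOXA10 was at 1.05 to 2.37 CPM in WT and at 0 to 0.0440 CPM in CD47- libraries, below the limit of detection. ETV6 (1.54, SE 0.19) and WT1 (0.71, SE 0.15) were higher, and EZH2 (-0.70, SE 0.16) and MYBL1 (-0.71, SE 0.14) were lower. Of the other Polycomb subunits in the list, SUZ12 (-0.52, SE 0.08) and EED (-0.39, SE 0.11) were also called lower. These lists were chosen with earlier results of these data known, so their counts are a description.

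The lists were also counted over time. At 6 h in WT cells, 11 T lineage factors were higher, 6 lower and 10 not called, with a median log2 change of 0.26. In CD47- cells 7 were higher, 13 lower and 7 not called, with a median of -0.20. At 6 h the lines differed for 12 of 27, 3 higher and 9 lower in CD47- relative to WT. The TAL1 complex partners gave 4 higher and 6 lower in WT and 2 higher and 8 lower in CD47- cells at 6 h, and 3 of 17 line differences were called. Line differences at 6 h were called for 4 of 13 TAL1 target genes, 4 of 18 partners of TCF-1 and LEF1 and 4 of 14 other T-ALL factors. The counts at 6 h in WT, at 6 h in CD47- cells and for the line difference stand against 50.5%, 53% and 16.6% of all genes, in this order.

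Isoforms were counted by RSEM, which divides shared reads by an estimate, so levels of isoforms that differ by few bases are uncertain. Between the lines, 9 of 82 tested member isoforms were called, against 15.1% of all isoforms. Those that hold at least 10% of a gene's counts were TAL1-202 (0.59, SE 0.10), TAL1-201 (0.39, SE 0.11), GATA3-202 (1.29, SE 0.26), LMO1-201 (-0.90, SE 0.29) and TCF12-201 (-0.98, SE 0.31). The other 4 were TAL1-203 (1.01), MYB-231 (1.62), MYB-207 (-0.81) and TCF12-222 (-0.81). With matched pairs as a block 13 were called against 19.9% of all isoforms, BCL11B-201 was among them (0.60, edgeR adjusted p = 0.0105), and LMO1-201 was not (-0.77, edgeR adjusted p = 0.0671). TAL1-202, whose promoter is printed above, held 85.6% ± 1.86 of TAL1 counts in WT and 87.4% ± 1.62 in CD47- cells (SD, n = 10). TAL1 was therefore higher in CD47- cells with nearly the same isoform make-up. GATA3-202 held 78.2% ± 20.8 and 92.9% ± 7.08, but in WT this rests on 110 to 310 GATA3 counts per library.

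No member isoform was called as changed in usage between the lines when all libraries were used without pairing. The edgeR test of usage within genes (diffSpliceDGE) called 0 of 81 member isoforms against 0.611% of all isoforms, and 0 of 30 groups of transcript starts, in which starts lie within 500 bases of the next, against 0.763% of all groups. At unadjusted p below 0.05 there were 6 isoforms and 1 start group, and no other tool was run for usage. With matched pairs as a block, 3 isoforms were called, LEF1-206, TCF12-201 and RUNX1-207, against 1.38% of all isoforms. RUNX1-207 held 16.9% of RUNX1 counts in WT and 9.61% in CD47- cells, whereas RUNX1-218, which has a neighbouring start, held 1.71% and 12.7%. The part of RSEM's division of shared reads in this call was not tested. Within the 4 unactivated pairs 2 were called, MYB-232 and MYB-234, against 0.174% of all isoforms, each with at least 1 library at 0. TCF12-201 held 27.3% ± 4.64 of TCF12 counts in WT and 17.5% ± 13.3 in CD47- cells, and TCF12-202 held 28.8% ± 4.67 and 39.4% ± 7.22. The CD47- value of TCF12-201 ranged from 6.17% to 48.5% over libraries, the highest in the library that stood apart, and from 6.17% to 27.8% in the other 9.

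TCF12-201 and TCF12-202 differ by a coding exon, so reads were also summed over the isoforms with and without each alternative exon. These exons were chosen after the isoform values were seen, and their shares come from the same isoform counts. An exact permutation test of the lines was run on them, but its p-values are not independent of that choice and are not given, so the shares are a description. Mean shares in CD47- cells were above WT for the TCF12 and LEF1 exons and below WT for the MYB and BCL11B exons. Of these 4 exons, 3 are printed 5′ to 3′ on the gene's strand, with the exon in capitals between 10 intron bases on each side. They are the 72-base TCF12 exon at chr15:57252421-57252492, the 84-base LEF1 exon at chr4:108081586-108081669 and the 255-base MYB exon at chr6:135195748-135196002. All 3 lengths keep the reading frame, and the LEF1 exon is one whose use is known to be regulated in T cells.
TCF12 exon: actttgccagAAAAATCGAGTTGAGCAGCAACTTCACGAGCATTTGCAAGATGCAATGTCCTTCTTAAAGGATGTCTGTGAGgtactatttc
LEF1 exon: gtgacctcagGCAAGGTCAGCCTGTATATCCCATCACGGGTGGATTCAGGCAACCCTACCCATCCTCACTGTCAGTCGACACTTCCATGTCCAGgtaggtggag
MYB exon: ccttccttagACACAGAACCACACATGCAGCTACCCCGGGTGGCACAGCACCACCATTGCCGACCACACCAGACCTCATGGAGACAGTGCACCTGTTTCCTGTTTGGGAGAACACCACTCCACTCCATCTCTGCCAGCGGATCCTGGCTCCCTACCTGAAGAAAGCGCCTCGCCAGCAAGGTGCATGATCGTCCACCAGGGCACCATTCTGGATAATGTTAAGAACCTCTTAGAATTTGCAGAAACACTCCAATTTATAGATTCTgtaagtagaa
The TCF12 exon was in 32.7% ± 4.55 of the counts in WT (23.7% to 38.6%) and 43.2% ± 7.32 in CD47- cells (33.1% to 52.2%), higher in 9 of 10 pairs. The LEF1 exon was in 64.9% ± 2.46 of the counts in WT (60.1% to 67.8%) and 70.4% ± 1.77 in CD47- cells (66.9% to 73.3%), also higher in 9 of 10 pairs. The ranges overlapped only narrowly for LEF1. LEF1-201, which holds this exon, and LEF1-203, which lacks it, belong to different groups of starts. The group of LEF1-201 held 43.0% of LEF1 counts in WT and 44.6% in CD47- cells, and that of LEF1-203 held 16.5% and 13.3%. Use of the LEF1 exon and of these starts is therefore not separated here. The MYB exon was in 71.0% ± 2.17 in WT (68.2% to 74.9%) and 66.7% ± 3.15 in CD47- cells (59.4% to 70.5%), higher in 1 of 10 pairs. The BCL11B exon of 213 bases, at chr14:99231345-99231557, was in 49.7% ± 8.60 in WT and 41.8% ± 3.03 in CD47- cells, higher in 1 of 10 pairs. BCL11B-202, which holds this exon, also starts 673 bases upstream of the next group of BCL11B starts. Its own shares were 49.6% in WT and 41.8% in CD47- cells, so use of the exon and of the start cannot be told apart.

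A further MYB exon of 56 bases, at chr6:135199526-135199581, belongs to isoforms in which it is not coding. It was in 10.9% ± 3.05 of counts in WT and 11.0% ± 2.13 in CD47- cells. In WT its share was 13.4%, 13.5%, 14.0% and 14.2% at 1 h, 10.8%, 10.0% and 12.3% at 3 h, and 7.26%, 7.95% and 5.92% at 6 h. CD47- cells had 10.4% to 11.8% at 1 h, 12.0% to 14.2% at 3 h and 8.12% to 8.84% at 6 h. The 6 h libraries were thus the lowest in both lines, and the 3 h libraries were the highest in CD47- cells only. The time course of this share was not tested.

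**Figure D4:**
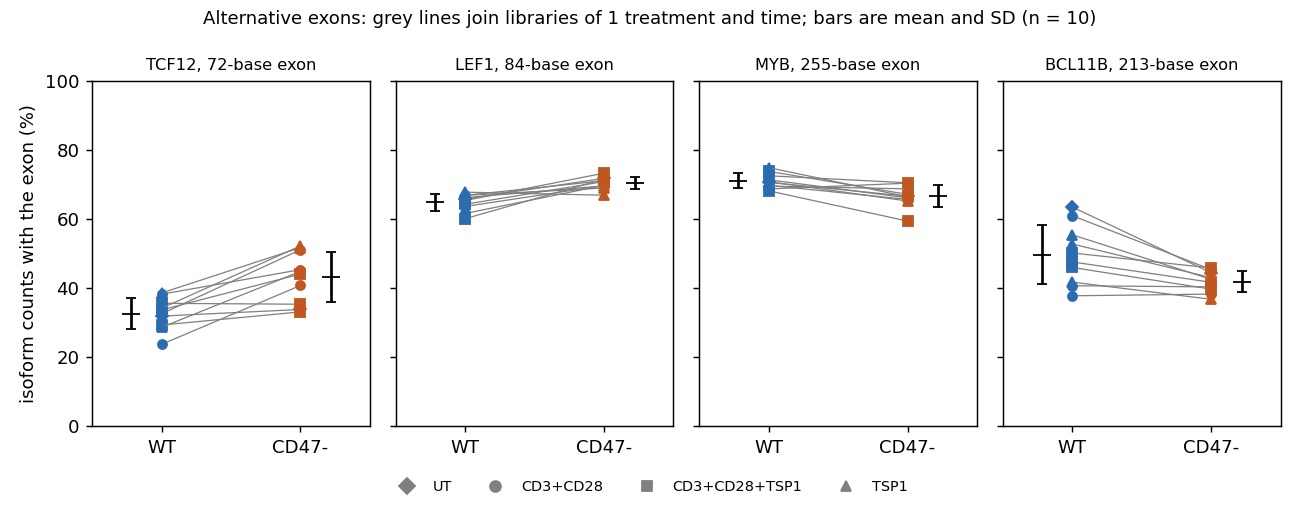
Percent of isoform counts that include an alternative exon of TCF12, LEF1, MYB or BCL11B in each library, with grey lines between WT and CD47- libraries of the same treatment and time and bars for the mean and SD of 10 libraries. The shares of the TCF12 and LEF1 exons are higher in CD47- in 9 of 10 pairs, and those of the MYB and BCL11B exons lower in 9 of 10 pairs.

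Over time, short LEF1 transcripts changed their share of the gene's counts. LEF1-205 and its neighbour start within the gene at chr4:108071778-108072251 and have no annotated coding sequence. Their share of LEF1 counts in WT was 3.12% ± 1.20 at 1 h (SD, n = 4), 5.77% ± 0.958 at 3 h and 6.46% ± 2.58 at 6 h (n = 3 each). In CD47- cells it was 2.88% ± 0.981, 5.45% ± 2.18 and 9.18% ± 0.732. The edgeR usage test over start groups called this group at 6 h in WT (adjusted p = 0.00259) and CD47- cells (1.42e-08) and at 3 h in WT (0.0220) and CD47- cells (0.00187). The WT ranges at 1 and 6 h overlapped, at 2.16% to 4.78% and 3.50% to 8.15%. At 3 h the WT range, 4.67% to 6.47%, also overlapped that at 1 h. In CD47- cells the ranges at 1 and 3 h overlapped, at 1.80% to 4.07% and 3.03% to 7.27%. LEF1-211, another start within the gene, held 10.3% ± 0.489 at 1 h and 6.01% ± 0.165 at 6 h in WT, and 9.91% ± 0.326 and 4.97% ± 0.222 in CD47- cells, without overlap (edgeR adjusted p = 0.00637 and 1.66e-04). Counts of LEF1-AS1, an antisense gene of LEF1, were higher in CD47- cells (0.46, SE 0.12), and their part in these shares was not tested.

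TCF12 transcripts from the internal start, represented by TCF12-203, made up 26.1% ± 1.31 of TCF12 counts at 1 h and 17.3% ± 6.97 at 3 h in CD47- cells (edgeR adjusted p = 0.00593). The shares at 3 h ranged from 10.2% to 24.1% and those at 1 h from 24.1% to 27.0%. In WT they were 27.5% ± 2.38 at 1 h, 22.2% ± 6.77 at 3 h and 24.2% ± 2.00 at 6 h. The CD47- share at 6 h was 22.4% ± 4.76 (17.0% to 25.8%). TCF12-203 lacks the first exons of the longer isoforms, and its coding sequence of 1536 bases compares with 2118 bases in TCF12-202. The fall of TCF12 mRNA at 3 h thus involved transcripts of both starts, with levels from the internal start of 77.7 ± 5.74 CPM at 1 h and 27.6 ± 12.2 CPM at 3 h in CD47- cells.

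RUNX1 has a proximal start (RUNX1-202) and distal starts (RUNX1-207 and RUNX1-218, which begin 4 bases apart and cannot be told apart by their starts). Distal starts held 31.3% ± 1.48 of RUNX1 counts in WT and 40.2% ± 2.23 in CD47- cells at 1 h (SD, n = 4), without overlap. At 3 h the shares were 24.6% ± 2.79 and 27.6% ± 4.47, and at 6 h 31.7% ± 0.533 and 27.6% ± 3.67 (n = 3 each). The order of the lines was therefore reversed between 1 h and 6 h, but the group was called neither between the lines nor over time.

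Calls in start groups were few in all. The background of called start groups was 0.955% at 6 h and 0.178% at 3 h in WT, and 1.44% and 1.16% in CD47- cells, against which 2 member groups, 1, 2 and 2 were called. For isoforms, the background was 1.04% at 6 h and 0.394% at 3 h in WT, and 1.62% and 1.21% in CD47- cells. There 3 member isoforms (MYB-238, LEF1-206 and RUNX1-203), 0, 4 (MYB-206, LEF1-205, LEF1-215 and TCF12-205) and 4 (TCF7-204, MYB-232, LEF1-215 and TCF12-201) were called. Most of them were minor and at 0 in some libraries. In CD47- cells TCF12-201 held 14.0% ± 7.12 of TCF12 counts at 1 h and 27.8% ± 20.7 at 3 h. Its highest share, 48.5%, was in the library that stood apart, and usage was not tested without that library. For 6 h, the line difference was called for 1 member isoform, MYB-238, against 0.382% of all isoforms (edgeR adjusted p = 0.0294). MYB-238 was at 0.529 ± 0.179 CPM at 1 h (SD, n = 4) and at 0 in the 3 libraries at 6 h in WT, and at 0.215 ± 0.268 and 0.4657 ± 0.0729 CPM in CD47- cells. RUNX1-203 held 10.9% ± 4.80 of RUNX1 counts at 1 h in WT and 0.0957% ± 0.166 at 6 h, and in CD47- cells it held 7.80% ± 3.30 and 0.496% ± 0.859. For isoforms in WT at 3 h, where edgeR called 0 of 81, there were 5 at unadjusted p below 0.05.

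**Figure D5:**
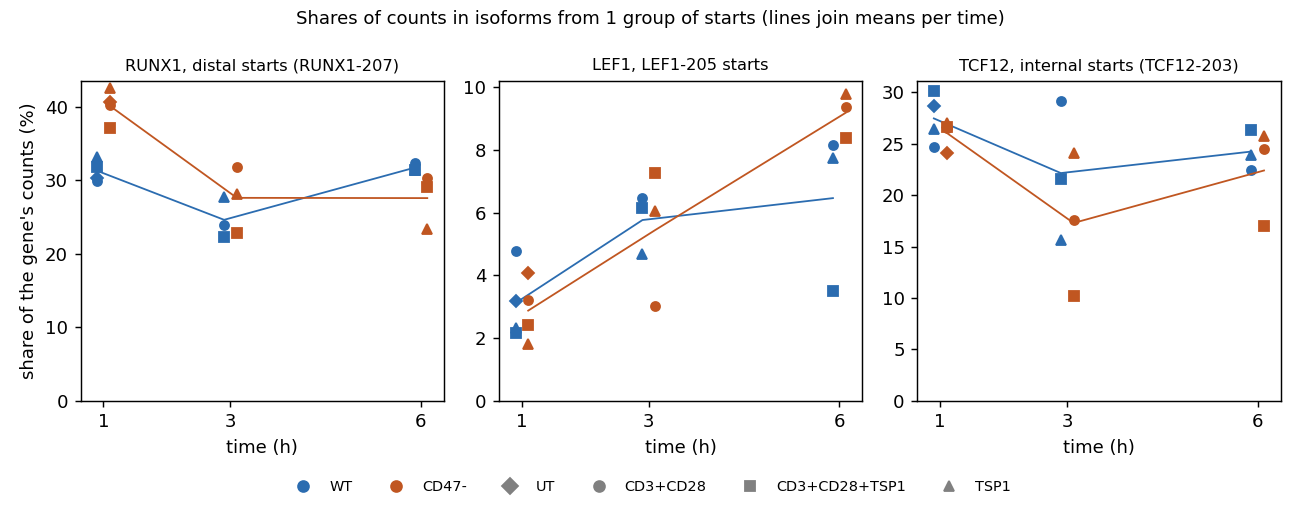
Percent of a gene's counts in isoforms from 1 group of starts against time in hours, for the distal starts of RUNX1, the LEF1-205 starts of LEF1 and the internal starts of TCF12, with WT in blue, CD47- in orange and lines through the mean per time. The LEF1-205 share is higher at 6 h than at 1 h in both lines, and the RUNX1 distal share differs most between the lines at 1 h.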

How the data were processed

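Trimming used Cutadapt 1.18, alignment to GRCh38 used STAR 2.4.2a in 2-pass mode, and counting used RSEM 1.3.3 on GENCODE 36, per the study's methods and its submitters' processing notes. The values deposited by the authors are RSEM expected counts for genes and for isoforms that were not normalized. A batch correction named in the methods was not repeated, because its batch is not given in the sources used here. A pair of columns that belongs to no sample (2 in each file) was not used. Members were matched by gene symbol, and the members, lists and alternatives were chosen with earlier results of these data known. Positions and isoform types come from GENCODE 44 and promoter windows from RefSeq.

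Expected counts were rounded to whole numbers for edgeR 4.0.16 (R 4.3.3). Genes and isoforms passed filterByExpr with line as the group (count of at least 10, total of at least 15), scaled by TMM and tested by quasi-likelihood, with Benjamini-Hochberg adjustment over all features tested and a threshold of 0.05. The line comparison used 10 libraries per line and no other term. Time, treatment and their line differences used 1 model of line by treatment with line-specific terms for 3 h and 6 h. The SD of a line therefore includes treatments and times. Usage was tested with diffSpliceDGE on isoforms and on starts grouped within 500 bases. Exon shares were summed from isoform counts. They were compared by an exact permutation test, whose p-values are not given because the exons were chosen on the same values. TPM was computed from isoform counts and annotated lengths. Isoforms were matched to the annotation by identifier without version, which placed 229165 of 232184. With the version 219802 matched, so some lengths and starts come from another version of the transcript. The scripts were tested on simulated data. A total of 3 counts was taken as the limit of detection, which covers counting error only.

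Libraries matched for treatment and time also share a position in the design, and their deviations from the line means correlated in each of 10 pairs (0.126 to 0.602), so the paired fit is given where it changes a call. The named genes are the members, isoforms with at least 10% of a member's counts in either line, up to 5 called genes per list with the largest change among those with a mean of at least 1 CPM in 1 line, and STIL. LDB1, SSBP3, SSBP4, CTNNB1, LEF1-AS1, GATA3-AS1, SUZ12, EED, the minor isoforms called and the start groups were chosen after their values were seen. Alternatives were DESeq2 1.42.0, limma voom 3.58.1 with quantile normalization, upper-quartile or no scaling factors, other filters, matched pairs as a block, a time term, activated or unactivated pairs alone, 1 line alone, other start groupings and each library left out in turn. Usage over time, exon shares and the list counts under other settings were added after seeing the data.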

Additional observations from a re-analysis of the deposited data

Results flagged for a closer look

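In the CD47- library of CD3+CD28+TSP1 at 3 h, 4 members lay far from the other 9 CD47- libraries by Dixon's criterion at the 95% level. GATA3 was at 30.9 CPM, RUNX1 at 263 CPM and TCF7 at 244 CPM, each the highest of its line, and MYB at 384 CPM was the lowest. Chance marks about 1 in 20 groups in this way. This library also had the lowest total count, 16107921, and its part in these values was not tested.

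The lines differed in their change from 1 h to 6 h by a test of the difference itself (CD47- minus WT, log2) for TCF12 at -0.72, TCF7 at -0.62, LEF1 at -0.47 and TAL1 at -0.37. With a library left out, the call was lost in 10 of 20 fits for TCF7, in 4 for TAL1, in 1 for LEF1 and in 0 for TCF12, and without CD47- TSP1 at 6 h TCF12 alone remained called. From 1 h to 3 h the difference was called for BCL11B at 0.65, a call that was lost with condition blocks, with upper-quartile factors and in 13 of 20 fits with a library left out. The usage of MYB-238, a minor MYB isoform at no more than 0.785 CPM in any WT library at 1 h, also differed in its change at 6 h (edgeR adjusted p = 0.0294). It was at 0 in all 3 WT libraries at 6 h and at 0.421 to 0.55 CPM in the CD47- libraries at 6 h.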

How the results depend on the processing

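TAL1 and GATA3 remained called between the lines in all 31 alternative fits, with log2 fold changes of 0.51 to 0.65 and 0.89 to 1.19. The number of members called between the lines, 3 with all libraries, was 5 without scaling factors (41% of all genes called) and with limma voom (42%), 6 with the replicate block of 10 matched pairs (54.9%) and with a time term (58.8%), 8 when averaged over conditions in the single model (60.3%), and 3 to 4 when a library was left out. With all libraries 40.4% of all genes were called. Leaving out scaling factors moved the median of all genes from -0.01 to 0.10 and the split of called genes from 3229 higher and 3367 lower to 4380 higher and 2317 lower. The direction turned for RUNX1 without scaling factors (0.027) and in the activated pairs (0.088), and for MYB without scaling factors (3.30e-05) and with limma voom (0.020), none of them called. For the 56-base MYB exon the difference in percent was -0.070 without CD47- CD3+CD28+TSP1 at 3 h and -0.29 in the unactivated pairs.

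With a library left out, called members ranged from 3 to 5 (3 h, WT), 4 to 6 (6 h, WT), 2 to 5 (6 h, CD47-), 2 to 4 (3 h, CD47-), 1 to 5 (line difference at 6 h), 0 to 2 (line difference at 3 h) and 0 to 1 (CD3+CD28 against UT, WT). In this order, the shares of all genes called with all libraries were 34.3%, 50.5%, 53%, 38%, 16.6%, 4.28% and 0. For the line difference at 6 h the lowest, 1, came without CD47- TSP1 at 6 h. At 3 h in CD47- cells 1 was called with limma voom and 2 with 1 line alone. At 3 h the line difference was called for 1 member with all libraries, and for 0 with upper-quartile factors, 3 with DESeq2, 2 without a filter and 0 with the replicate block. Without a filter, 1 member was called for CD3+CD28 against UT in WT, 2 each for CD3+CD28+TSP1 against TSP1 and against CD3+CD28 in CD47- cells, and 1 for the line difference in the former, and with WT libraries alone 1 for CD3+CD28 against UT. The share of all genes called in each of these alternative fits is not given. Shifts of the members therefore cannot be told apart from shifts of all genes. Member isoforms called numbered 3 of 81 in the activated pairs (5.77% of all isoforms called) and 3 of 87 in the unactivated pairs (2.22%). Usage calls numbered 3 with the replicate block (1.38% of all isoforms) and 2 in the unactivated pairs (0.174%). When starts were grouped within 100 bases, 1 start group was called (0.755% of all groups). The cause of these shifts was not tested. LMO1 and LMO2 are limited by depth, since they rest on at most 141 and 8 counts per library.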
